A study of Homo sapiens with 6 samples.

Results

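The transcripts of MHC class I and of its peptide loading machinery were measured in NCRM-1 human induced pluripotent stem cells (hiPSCs). The set was chosen by name and holds 9 of the 19977 genes in the count tables. It comprises the class I heavy chain genes HLA-B, HLA-C, HLA-E, HLA-F and HLA-G, the light chain gene B2M, the peptide transporter genes TAP1 and TAP2, and TAPBP, which encodes tapasin. The rule names genes and uses no measured value, but it was written with earlier results of these data known.

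The cells were wild type NCRM-1, an established line reprogrammed from cord blood cells with episomal plasmids, grown as aggregates in vertical wheel bioreactors. Single cells were seeded with a ROCK inhibitor and cultured for 4 days, and 50% of the medium was replaced on day 2. In the PEG and HS group (n = 3 libraries) the E8 medium held 10 mg/ml polyethylene glycol (PEG) and 0.1 µg/ml heparin sodium salt (HS), and in the E8 control group (n = 3 libraries) it held neither. The comparison asks how the 2 additives together changed the transcripts, and neither additive was measured alone. All data come from a single cell line. The labels speak of a single bioreactor for each medium, so an effect of the vessel cannot be told apart from that of the medium. Errors and p-values here measure the spread between samples, which may be technical. The treatment text of the labels describes the additives for all 6 libraries, and groups here follow the treatment entry of each sample.

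Class I molecules present peptides from the cell's own proteins to CD8 T cells and to NK cells. A heavy chain folds with B2M in the endoplasmic reticulum, TAP1 and TAP2 form the transporter that brings peptides in from the cytosol, and tapasin holds the empty class I molecule at the transporter until a peptide binds. HLA-B and HLA-C present peptides to T cells and are read by NK cells as well. HLA-E, HLA-F and HLA-G are less variable heavy chains read mainly by receptors of NK and myeloid cells. Pluripotent cells are known for low class I levels that interferon raises.

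Transcription of HLA-B, HLA-C and B2M is known to depend on an interferon-stimulated response element, bound by IRF factors. It also depends on an X and Y box module bound by RFX, CREB family and NFY factors with NLRC5. The RefSeq promoter table (GRCh38.p14) held 8 of the 9 genes, without HLA-E. The 250 bases before the annotated start are shown for 4 of them, in the direction of transcription, with HLA-C as the only gene of the set that passed the test between media, B2M as its partner chain, HLA-G as the least abundant heavy chain and TAPBP as a loading gene outside the heavy chain family. Capitals mark matches on either strand to GAAANNGAAA or GAANNGAAA (interferon element letters), TGACG (X2 core) and CCAAT (Y box). The HLA-C window is chr6:31272093-31272342 on the minus strand, the HLA-G window is chr6:29827575-29827824 on the plus strand, the B2M window is chr15:44711267-44711516 on the plus strand, and the TAPBP window is chr6:33314079-33314328 on the minus strand.
HLA-C: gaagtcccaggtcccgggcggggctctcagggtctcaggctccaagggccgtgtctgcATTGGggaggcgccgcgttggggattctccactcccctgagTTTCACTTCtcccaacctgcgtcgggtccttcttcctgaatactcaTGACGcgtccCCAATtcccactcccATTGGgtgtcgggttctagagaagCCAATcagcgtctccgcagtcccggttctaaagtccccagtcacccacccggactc
HLA-G: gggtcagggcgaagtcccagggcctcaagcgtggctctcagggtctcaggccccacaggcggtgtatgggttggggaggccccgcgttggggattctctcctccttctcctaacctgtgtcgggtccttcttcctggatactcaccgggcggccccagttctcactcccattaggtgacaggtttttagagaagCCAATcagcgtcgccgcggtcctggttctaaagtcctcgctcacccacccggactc
B2M: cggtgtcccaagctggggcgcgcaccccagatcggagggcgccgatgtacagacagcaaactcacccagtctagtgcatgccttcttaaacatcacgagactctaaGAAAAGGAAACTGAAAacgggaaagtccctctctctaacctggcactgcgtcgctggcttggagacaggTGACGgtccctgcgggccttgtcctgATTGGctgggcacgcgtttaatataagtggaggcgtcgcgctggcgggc
TAPBP: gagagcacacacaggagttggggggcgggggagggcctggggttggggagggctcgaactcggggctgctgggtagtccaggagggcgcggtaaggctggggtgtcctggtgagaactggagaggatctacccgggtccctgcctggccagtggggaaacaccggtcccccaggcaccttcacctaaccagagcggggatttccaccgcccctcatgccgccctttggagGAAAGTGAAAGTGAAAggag

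Interferon element letters in either spacing were found in 7 of the 8 promoters, against 9.08% of the 35114 RefSeq promoters of the same length. The promoter without a match was that of HLA-G. The X2 letters were found in HLA-B, HLA-C, B2M and TAP2, which is 4 of 8 against 21.2% of all promoters. The Y box letters were found in 6 of 8 against 32% of all promoters, and in HLA-B, HLA-C and HLA-G the match nearest to the start began 56 bases before it. HLA-B, HLA-C and B2M held all 3 kinds of match. In the windows of B2M and TAPBP, 2 matches to GAAANNGAAA overlap each other. These matches are descriptions of the reference sequence, and binding was not measured.

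The libraries held 26991279 to 36185138 counts on genes, with overlapping ranges between media. Each of the 9 genes had enough counts to be tested, a total of at least 10 over the 6 libraries, as had 16505 genes in all. The pluripotency markers summed to 10300 to 10500 CPM in PEG and HS against 10400 to 10600 CPM in E8 control, where CPM is counts per 1000000 counts of the library after TMM scaling. Of these 10 markers, the additives went with higher levels of 4 and lower levels of 4 at an adjusted p under 0.05, with log2 fold changes from -0.59 to 0.55, so the like sums hold opposite moves. The leukocyte markers summed to 13.3 to 16 CPM and 12.4 to 12.7 CPM, and PTPRC, the gene of the pan-leukocyte protein CD45, had between 0 and 3 counts in each library. Of 6 leukocyte markers tested, edgeR called 1 higher, CORO1A (log2 fold change 0.25, adjusted p = 0.0309), and 0 lower, 2 had an unadjusted p under 0.05, and DESeq2 called none. Of 10 neuroectoderm markers, 8 were lower and 1 higher in PEG and HS, with a summed level of 74.6 to 80.8 CPM in PEG and HS against 186 to 194 CPM in E8 control. Of 7 trophoblast and amnion markers tested, 4 were lower and 0 higher (4 at an unadjusted p under 0.05), with sums of 16.4 to 17.6 and 32.6 to 34.4 CPM, and the trophoblast gene CGA had 0 counts. Of 6 mesoderm and endoderm markers tested, 0 were called by edgeR, DESeq2 or limma-voom (2 at an unadjusted p under 0.05). Over all genes tested, edgeR called 12.2% higher and 13.1% lower. These marker levels moved with the medium alongside the class I values below, and their part in those values was not tested. In bulk RNA, fewer cells of a type and less RNA per cell cannot be told apart.

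Class I and loading transcripts were present in both media at widely different levels, and their order was led by HLA-C. Levels between genes were compared as CPM per kb of the MANE Select transcript, a unit corrected for length. In E8 control HLA-C was at 113 ± 1.90 CPM per kb (SD, n = 3), at the 96.8th percentile of the genes tested that have such a transcript. B2M followed with 47.9 ± 1.67 CPM per kb, at the 91.3rd percentile. HLA-E had 13.3 ± 0.697 and TAPBP 12.6 ± 0.516 CPM per kb, and these neighbours overlapped over the 6 libraries. HLA-B had 8.42 ± 0.313 CPM per kb. TAP2 and TAP1 had 3.42 ± 0.266 and 3.26 ± 0.155 CPM per kb and overlapped as well. HLA-F, at 1.16 ± 0.257 CPM per kb, and HLA-G, at 0.707 ± 0.0871 CPM per kb, were the lowest. All other neighbours in this order were separate in all 6 libraries. Class I genes vary strongly between people, and how many reads the mapping to a single reference lost from alleles unlike it was not tested, so the order describes mapped reads.

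**Figure D1:**
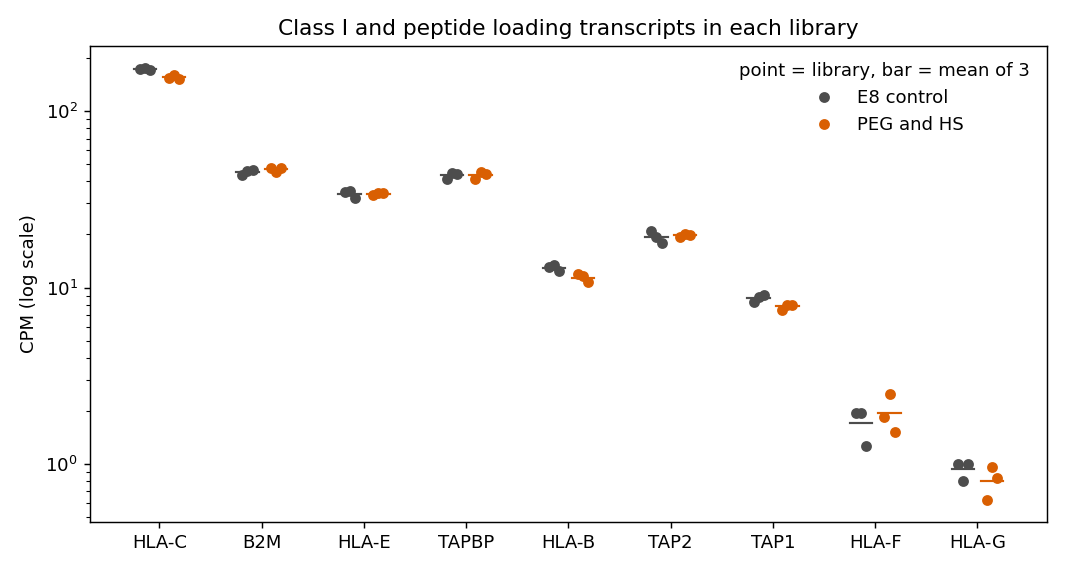
CPM of the 9 genes in each of the 6 libraries on a log axis, ordered by level per length, with points for libraries and bars for the mean of 3. HLA-C lies between 153.2 and 177.3 CPM, and its PEG and HS libraries all sit below the E8 control libraries.

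HLA-C (ENSG00000204525, GRCh38 chromosome 6, 31268749 to 31272130, minus strand) was lower in PEG and HS, and of the 9 genes it alone passed the test. Its level was 155.0, 160.9 and 153.2 CPM in the PEG and HS replicates against 174.1, 177.3 and 171.5 CPM in the E8 control replicates. Every PEG and HS library lay below every E8 control library. The means were 156 ± 4.02 and 174 ± 2.93 CPM (SD, n = 3), a log2 fold change of -0.16 (SE 0.029, 95% interval -0.22 to -0.095). Its p was 0.000984 in edgeR's quasi-likelihood test after Benjamini-Hochberg adjustment over all genes tested. HLA-C thus fell by 10.3%. Over the set, 0 genes were called higher and 1 lower at an adjusted p under 0.05, where 25.3% of all genes tested were called, 12.2% higher and 13.1% lower. At an unadjusted p under 0.05 the count was 3 of 9, and DESeq2 and limma-voom also called 0 higher and 1 lower, with backgrounds of 20.6% and 25.3% called in either direction. The call of HLA-C was kept with each library left out in turn (adjusted p 0.000918 to 0.00752) and in DESeq2 (adjusted p = 3.08e-05) as well as at a threshold of 0.01, which 15.8% of all genes pass. It was lost when the difference was tested against 1.2-fold in place of 0 (adjusted p = 1), a test that 5.26% of all genes pass.

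HLA-B (ENSG00000234745, chromosome 6, 31353872 to 31367067, minus strand) had 11.9, 11.6 and 10.8 CPM in PEG and HS against 13.0, 13.4 and 12.4 CPM in E8 control. Its libraries did not overlap between media, and all PEG and HS values were the lower ones. The log2 fold change was -0.18 (SE 0.067, 95% interval -0.32 to -0.038) with an adjusted p of 0.0615 in edgeR, which misses the threshold. It passed narrowly with upper quartile scaling (adjusted p = 0.0484) and with edgeR's own filter on low counts (adjusted p = 0.0498), and not in DESeq2 (adjusted p = 0.185). Of its transcript sequence, read as 31-base words, 38.1% also occurs in other annotated genes, but 10.4% in genes that the tables count.

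HLA-E (ENSG00000204592, chromosome 6, 30489509 to 30494194, plus strand), which displays leader peptides of other class I chains to NK receptors, had 33.6, 34.4 and 34.3 CPM in PEG and HS against 34.8, 35.2 and 32.0 CPM in E8 control. The media overlapped, with a log2 fold change of 0.007 (SE 0.047, adjusted p = 0.94) and a 95% interval from -6.31% to 7.73%.

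HLA-F (ENSG00000204642, chromosome 6, 29722775 to 29738528, plus strand) had 62, 70 and 51 counts in the PEG and HS libraries against 52, 63 and 46 in the E8 control libraries. HLA-G (ENSG00000204632, chromosome 6, 29826967 to 29831125, plus strand), a heavy chain best known from trophoblast, had 21, 27 and 28 counts in PEG and HS against 27, 26 and 36 in E8 control. Both genes overlapped between media. At this depth the 95% interval of the difference ran from -19.0% to 58.4% for HLA-F (adjusted p = 0.618) and from -43.0% to 28.6% for HLA-G (adjusted p = 0.608). Differences within these intervals remain possible. An antisense gene, HLA-F-AS1, overlaps HLA-F, and whether the counting used strand is not given in the sources used here.

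Added together, the 5 heavy chains had 203, 210 and 201 CPM in PEG and HS against 225, 229 and 218 CPM in E8 control. The PEG and HS sums were all lower, with a log2 ratio of -0.13 (exact two-sided permutation p = 0.1, the smallest that 3 against 3 libraries allow, and 0.15 after adjustment over 9 such summed or ratio values). HLA-C made up 76.4% ± 0.0673 (SD, n = 3) of these counts in PEG and HS against 77.9% ± 0.657 in E8 control. HLA-E made up 16.7% ± 0.377 and 15.2% ± 0.459, and HLA-B 5.58% ± 0.246 and 5.78% ± 0.0782. The sum therefore follows HLA-C. Words shared with other genes of the set made up 14% of the sequence of HLA-C, 8.80% of HLA-G, 6.09% of HLA-B, 5.56% of HLA-E and 1.62% of HLA-F.

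B2M (ENSG00000166710, chromosome 15, 44711358 to 44718851, plus strand), the only gene of the set outside the MHC on chromosome 6, had 47.6, 45.2 and 47.7 CPM in PEG and HS against 43.4, 45.8 and 46.3 CPM in E8 control. The ranges overlapped, the log2 fold change was 0.05 (SE 0.041, adjusted p = 0.398), and the 95% interval ran from -2.42% to 10.2%. Per length, the summed heavy chains stood at 2.44, 2.66 and 2.40 times B2M in PEG and HS against 2.98, 2.87 and 2.72 times B2M in E8 control. This ratio was lower in each PEG and HS library (log2 ratio -0.19, exact two-sided permutation p = 0.1, adjusted 0.15). B2M shares 0.43% of its sequence with other genes, the least of the set.

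TAP1 (ENSG00000168394, chromosome 6, 32845209 to 32853816, minus strand) had 7.50, 7.93 and 8.01 CPM in PEG and HS against 8.30, 8.86 and 9.12 CPM in E8 control. The libraries did not overlap and PEG and HS had the lower values, but the test was missed (log2 change -0.17 ± 0.076 SE, 95% interval -0.33 to -0.006, adjusted p = 0.124). PSMB9 overlaps TAP1 on the opposite strand. In all, PEG and HS and E8 control libraries were fully separate in 3 of the 9 genes, HLA-B, HLA-C and TAP1, against 39.3% of all genes tested.

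TAP2 (ENSG00000204267, chromosome 6, 32821833 to 32838739, minus strand), the other subunit of the transporter, had 19.4, 20.2 and 19.9 CPM in PEG and HS against 20.8, 19.3 and 17.8 CPM in E8 control. The media overlapped (log2 change 0.04 ± 0.062 SE, 95% interval -0.088 to 0.18, adjusted p = 0.663). A gene on the same strand, ENSG00000250264, overlaps TAP2 and was counted at 2.16 to 3.80 CPM in PEG and HS against 1.07 to 2.65 CPM in E8 control, and 19.2% of the TAP2 sequence is shared with other genes. The sum of TAP2 and that gene was 23.2, 22.6 and 22.0 CPM with the additives and 21.9, 22.0 and 20.3 CPM without them, separate between media by a narrow margin and higher with the additives (log2 ratio 0.08, exact two-sided permutation p = 0.1, adjusted 0.15). Per length the ratio of TAP2 to TAP1 was 1.21 ± 0.0247 in PEG and HS against 1.05 ± 0.132 in E8 control, with overlap (exact two-sided permutation p = 0.2).

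TAPBP (ENSG00000231925, chromosome 6, 33299694 to 33314284, minus strand) had 41.3, 45.5 and 44.1 CPM in PEG and HS against 41.3, 44.4 and 44.3 CPM in E8 control. These ranges overlapped, with a log2 fold change of 0.007 (SE 0.046, adjusted p = 0.935) and a 95% interval from -6.16% to 7.59%. Summed, TAP1, TAP2 and TAPBP had 71.3 ± 2.83 CPM in PEG and HS against 71.4 ± 1.14 CPM in E8 control (exact two-sided permutation p = 1).

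**Figure D2:**
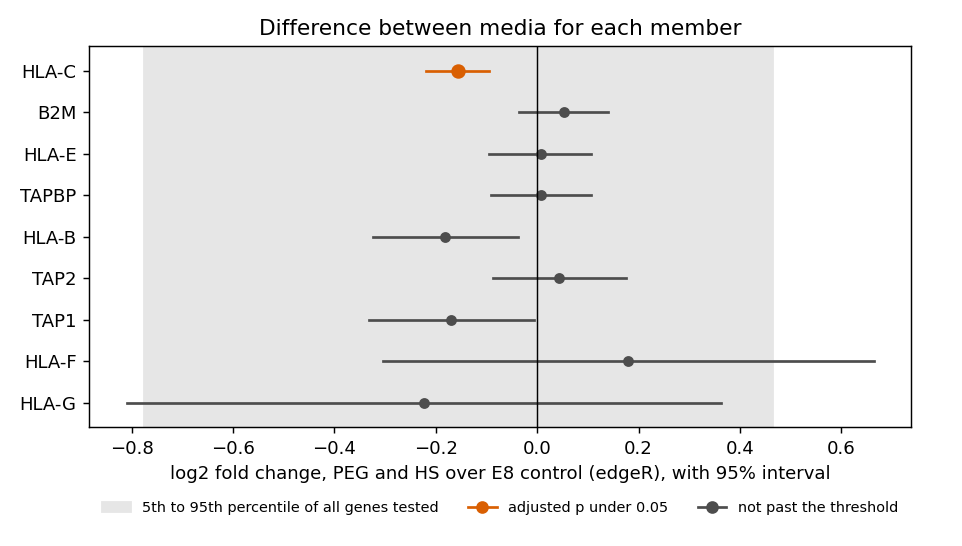
Log2 fold change of each gene between PEG and HS and E8 control with its 95% interval from edgeR, with the 5th to 95th percentile of all genes tested in grey. HLA-C, at -0.16, is the only gene past the adjusted threshold, and the intervals of HLA-F and HLA-G are the widest.

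The median log2 fold change of the 9 genes was 0.007, beside 0.003 over all genes tested, and their range of -0.22 to 0.18 lay inside the 5th to 95th percentile of all genes (-0.78 to 0.47). Of 120 other tested genes on chromosome 6 between the start of HLA-F and the end of TAPBP (29722775 to 33314284), 11 were called higher and 9 lower. This is 16.7%, beside 25.3% of all genes tested. The genes whose level over the 6 libraries ran closest to the summed heavy chains, among 10063 genes with a mean of at least 10 CPM, were SPC25 (a kinetochore subunit), NAV1 (a neuron navigator) and MFGE8 (a secreted milk fat globule protein). Their root mean square differences from the centred log2 sum were 0.007, 0.0086 and 0.0093, and their own log2 fold changes were -0.13, -0.13 and -0.12. These genes were picked as the nearest, so small differences and like fold changes follow from the choice. A link between them and class I was not tested.

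The chaperones that fold class I and the enzymes that trim its peptides were counted from a list of 8 genes, of which 7 were tested. Of these, 2 were called higher and 0 lower (2 of 7 at an unadjusted p under 0.05). Over all genes tested, 12.2% were called higher and 13.1% lower. UGGT1, the glycoprotein folding sensor, had 204 ± 5.89 CPM in PEG and HS against 190 ± 4.38 CPM in E8 control (log2 change 0.11 ± 0.03 SE, adjusted p = 0.0149). Without PEG and HS replicate 3 its adjusted p was 0.068, without E8 control replicate 2 it was 0.0582 and without E8 control replicate 3 it was 0.0521. CALR, the calreticulin gene, had 919 ± 17.3 and 875 ± 8.88 CPM (log2 change 0.07 ± 0.024 SE, adjusted p = 0.0475), and it lost the call with any of the 6 libraries left out (adjusted p 0.06 to 0.176), with RLE (0.0561) or upper quartile scaling (0.103), and with no filter (0.0541) or filterByExpr (0.0665) on low counts. PDIA3, CANX and HM13 had log2 fold changes of 0.048, 0.002 and -0.007 and were not called. The trimming peptidase ERAP1 had 19.6 CPM in PEG and HS against 21.1 CPM in E8 control (adjusted p = 0.161), and ERAP2 had 0 to 2 counts in each library and was not tested.

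In the main edgeR fit, DESeq2 and limma-voom, none of the 5 immunoproteasome and PA28 genes was called (1 of 5 at an unadjusted p under 0.05). The same held for the 3 standard catalytic subunits (1 of 3 at an unadjusted p under 0.05). The share of all genes tested that was called was 25.3% in edgeR, 20.6% in DESeq2 and 25.3% in limma-voom. With so few genes in these lists, the absence of calls says little about a difference from that share. In edgeR, PSME1 of PA28 was called lower with replicate number as a block (log2 fold change -0.14, adjusted p = 0.0237). PSMB7, a standard subunit, was called lower without E8 control replicate 1 (log2 fold change -0.11, adjusted p = 0.0432). Immunoproteasome subunits replace the standard ones when interferon is present. The standard subunits were the more abundant ones per length in every library. PSMB5 stood at 21.8 ± 1.93 times its replacement PSMB8 in PEG and HS against 19.1 ± 1.26 times in E8 control. PSMB6 stood at 333 ± 81.8 and 234 ± 53.1 times PSMB9, a gene with 12 to 23 counts in each library. PSMB7 stood at 9.51 ± 0.714 and 10.7 ± 0.507 times PSMB10. The exact two-sided permutation p of these 3 ratios between media was 0.3, 0.1 and 0.1 (adjusted over 9 values 0.337, 0.15 and 0.15).

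Of 13 factors that act on class I promoters, 0 were called higher and 1 lower by edgeR (1 at an unadjusted p under 0.05), and none by DESeq2. Over all genes tested, edgeR called 12.2% higher and 13.1% lower. RFX5, a subunit of the X box complex, had 65.1 ± 1.44 CPM in PEG and HS against 70.1 ± 2.33 CPM in E8 control (log2 change -0.11 ± 0.036 SE, adjusted p = 0.042). Its call was lost in DESeq2 (adjusted p = 0.0779), with library size alone (0.0664) and without PEG and HS replicate 2 (0.0976) or 3 (0.129) or E8 control replicate 1 (0.116) or 3 (0.138). NLRC5, the class I transactivator, had 17 to 33 counts in each library, 0.640 CPM in PEG and HS against 0.761 CPM in E8 control (adjusted p = 0.563). IRF1, which binds the interferon element, had 3.85 and 3.55 CPM (adjusted p = 0.584).

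Among 12 interferon receptor and signalling genes, 4 were called higher and 2 lower, beside 12.2% higher and 13.1% lower over all genes tested. SOCS1, an inhibitor of JAK kinases, had 18, 17.6 and 18 CPM in PEG and HS against 11.5, 12.2 and 12.2 CPM in E8 control. It rose by a log2 fold change of 0.58 (SE 0.059, adjusted p = 2.88e-06). The kinase JAK1 rose from 41.9 ± 1.31 to 48.8 ± 0.534 CPM (log2 change 0.22 ± 0.039 SE, adjusted p = 0.000677). IFNAR2 (log2 fold change 0.22, adjusted p = 0.0286) and TYK2 (log2 fold change 0.20, adjusted p = 0.0215), a receptor chain and a kinase of type I interferon, were higher too. Without PEG and HS replicate 2 their adjusted p rose to 0.117 and 0.0991, without E8 control replicate 3 to 0.122 and 0.105, and for IFNAR2 without E8 control replicate 2 to 0.0563 and in DESeq2 to 0.0848. The genes called lower were the receptor chains of interferon gamma, IFNGR1 and IFNGR2, with log2 fold changes of -0.16 (adjusted p = 0.0375) and -0.18 (adjusted p = 0.0111). IFNGR1 lost the call without PEG and HS replicate 2 (0.126) or 3 (0.104), without E8 control replicate 1 (0.0747) or 3 (0.129), in DESeq2 (0.0804) and with library size alone (0.0517).

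Of 26 interferon-stimulated genes, 21 were tested. The additives went with 0 calls higher and 8 lower, beside 12.2% higher and 13.1% lower over all genes tested. At an unadjusted p under 0.05 the count was 9 of 21, and DESeq2 called 0 higher and 7 lower. The median log2 fold change of the 21 genes was -0.10, beside 0.003 over all genes tested. MX1, an antiviral GTPase, had 3.35, 3.43 and 3.01 CPM in PEG and HS against 5.75, 5.85 and 6.15 CPM in E8 control, and it fell by 0.86 on the log2 scale (SE 0.107, adjusted p = 2.35e-05). BST2, the tetherin gene, had 15.5, 16.2 and 17.8 CPM and 29.5, 28.7 and 27.2 CPM, and it fell by 0.78 on the log2 scale (SE 0.06, adjusted p = 1.21e-07). TRIM22 fell from 14.5 ± 0.684 to 9.32 ± 0.394 CPM (log2 change -0.63 ± 0.068 SE, adjusted p = 5.55e-06). Values of these 3 genes, named for their large changes, were fully separate between media. They were among 9 such genes of the 21 tested, beside 39.3% of all genes tested. IFI35 had a log2 fold change of -0.68 (adjusted p = 0.0243), which was 0.0931 without PEG and HS replicate 1, 0.0824 without PEG and HS replicate 2 and 0.104 without E8 control replicate 2. The other 4 called were IFITM1, ISG15, IFITM3 and LGALS3BP, with log2 fold changes of -0.35, -0.38, -0.22 and -0.21, and ISG15 lost the call without E8 control replicate 1 (adjusted p = 0.0502) and in DESeq2 (0.0668). OAS3 was not called (log2 fold change -0.51, adjusted p = 0.0904) but passed in edgeR without PEG and HS replicate 1 (adjusted p = 0.0352). IFIT2, OAS1, OAS2, GBP2 and XAF1 had 0 to 2 counts in each library and were not tested.

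**Figure D3:**
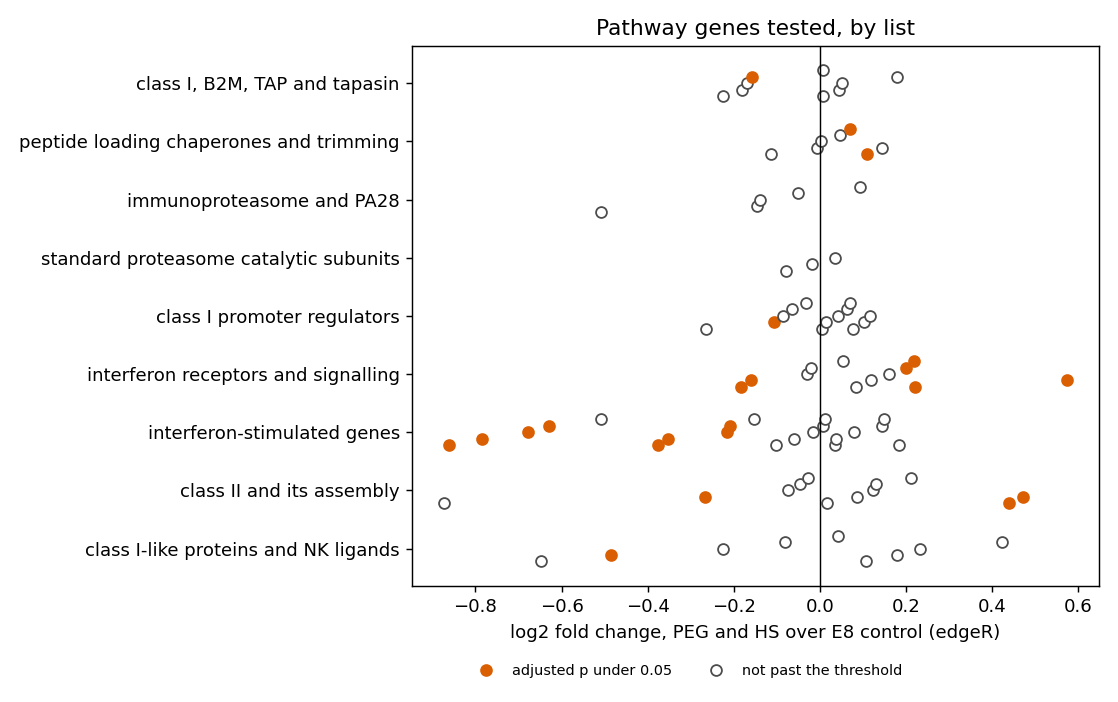
Log2 fold change between PEG and HS and E8 control of each tested gene, by list, with filled points for genes at an adjusted p under 0.05 in edgeR. The 8 filled points among the interferon-stimulated genes all lie left of 0, whereas the class I set has 1 filled point, HLA-C at -0.16.

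Class II molecules, which present peptides taken up from outside and are typical of immune cells, were counted as the sister pathway. All 12 listed genes were tested, 2 were called higher and 1 lower, beside 12.2% higher and 13.1% lower over all genes tested. CIITA, the class II transactivator, rose from 3.39 ± 0.577 to 4.67 ± 0.410 CPM (log2 change 0.47 ± 0.138 SE, adjusted p = 0.0206), with an adjusted p of 0.0603 without PEG and HS replicate 2, 0.0742 without PEG and HS replicate 3 and 0.0932 without E8 control replicate 3. HLA-DRA had 4.80, 4.78 and 4.79 CPM in PEG and HS against 3.37, 3.45 and 3.74 CPM in E8 control (log2 change 0.44 ± 0.11 SE, adjusted p = 0.00815). HLA-DQB1 went the other way, from 39.8 ± 3.44 CPM in E8 control to 33.2 ± 1.32 CPM (log2 change -0.27 ± 0.057 SE, adjusted p = 0.00289). Per length, HLA-DQB1 was at 24.8 ± 2.15 CPM per kb and the invariant chain gene CD74 at 24.7 ± 1.74 CPM per kb in E8 control, which are higher levels than that of HLA-B. The gene of its partner chain, HLA-DQA1, was at 0.655 ± 0.0382 CPM per kb and had 13 to 26 counts with the additives and 26 to 39 without them. Its log2 fold change of -0.87 missed the test in edgeR (adjusted p = 0.0706) and in DESeq2 (0.11) and passed in limma-voom (0.0351), with filterByExpr (0.0457) and without PEG and HS replicate 2 (0.00867). Class II genes also vary strongly between people, and reads lost from alleles unlike the reference were not tested for them either.

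**Figure D4:**
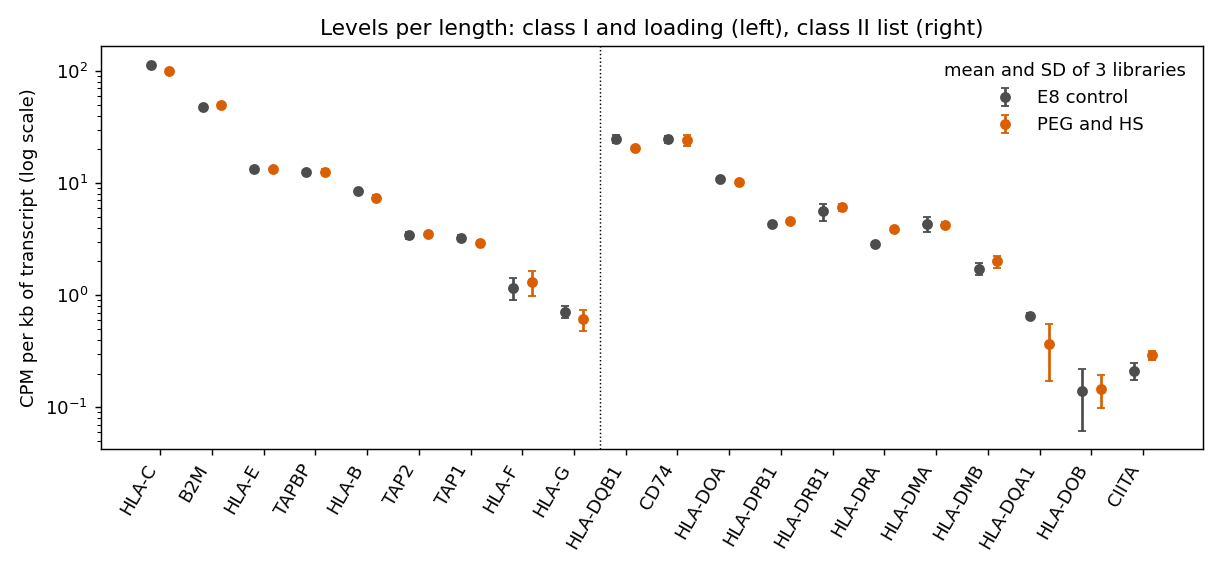
CPM per kb of MANE Select transcript on a log axis for the class I set (left of the dotted line) and the class II list (right), as mean and SD of 3 libraries for each medium. HLA-DPA1 is left out because it has no such transcript, and HLA-DQB1 and CD74 lie between B2M and HLA-E.

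Of 10 class I-like proteins and NK ligands, 9 were tested, 0 were called higher and 1 lower (1 of 9 at an unadjusted p under 0.05). Over all genes tested, 12.2% were called higher and 13.1% lower. PROCR, the endothelial protein C receptor with a class I-like fold, had 6.61, 6.62 and 6.44 CPM in PEG and HS against 9.34, 9.17 and 9.06 CPM in E8 control (log2 change -0.49 ± 0.075 SE, adjusted p = 0.000179). The stress ligands MICA and MICB, read by the NK receptor NKG2D, had 7.45 and 14 CPM in PEG and HS against 6.86 and 13.5 CPM in E8 control and were not called. FCGRT, the Fc receptor chain that pairs with B2M, had 27.2 and 28.8 CPM (adjusted p = 0.238), and ULBP2 had 0 or 1 count in each library.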

How the data were processed

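Bulk polyadenylated RNA of 6 NCRM-1 libraries was compared, 3 of PEG and HS and 3 of E8 control. The deposited values are raw counts per Ensembl gene, which the authors made with Trim Galore 0.6.7 and STAR 2.6.1 on GRCh38 according to the submitters' processing notes, with 1 library in each file. The counting tool, its use of strand and the annotation release are not given in the sources used here. GENCODE 44 gave symbols for 19916 of 19977 identifiers. Genes with at least 10 counts in total were tested with edgeR 4.0.16 in R 4.3.3 (TMM, glmQLFit, glmQLFTest, no covariate), adjusted by Benjamini-Hochberg over 16505 genes. The SE was taken from the fold change and its F statistic. Summed values and ratios were tested by exact permutation. DESeq2 1.42.0, limma-voom (limma 3.58.1), other scalings, filters and thresholds, a replicate block and left-out libraries were the alternatives. Replicates of a medium were not duplicates: their chi-square over degrees of freedom was 2.58 to 3.52. The common biological coefficient of variation was 3.12%. Scripts were tested on simulated counts.

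The genes and lists were chosen with earlier results of these data known. All 9 genes of the set are reported, and of each list the called genes with the largest changes, up to 4, and those at 0 or untested, with the 3 genes nearest in pattern to the summed heavy chains. IFNGR1, IFNGR2, IFITM1, ISG15, IFITM3, LGALS3BP, the class II and leukocyte genes of the closing section and genes named as not called were added after their values were seen.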

Additional observations from a re-analysis of the deposited data

How the results depend on the processing

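The number of genes called was 4173, and it was 868 when tested against 1.2-fold and 2601 at an adjusted p under 0.01. The number called in the class I set was 1, and it was 2 with upper quartile scaling, 2 with edgeR's filterByExpr and 0 against 1.2-fold. Of the 82 pathway list genes tested, 21 were called, 5 against 1.2-fold and 11 at an adjusted p under 0.01. The shares of all genes tested were 25.3%, 5.26% and 15.8%. Leaving out a single library gave 3114 to 3674 genes called, 14 to 20 list genes and 1 to 1 gene of the set, HLA-C each time. The 1.2-fold test asks for a larger change by its construction, and the cause of the other shifts was not tested. SOCS1, MX1, BST2, TRIM22 and PROCR kept their calls under all 16 alternatives, and the other 16 list genes lost theirs at least against 1.2-fold. Uncalled differences changed sign in 4 alternatives for HLA-E, 4 for TAPBP, 2 for HLA-F and 1 for TAP2.

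Deviations of same-numbered libraries of the 2 media had an r across genes of 0.004 to 0.014, beside -0.012 to 0.007 for differently numbered ones. These deviations include counting noise, so the check cannot decide whether the numbers pair the libraries. The replicate block called 4444 genes in all, 22 list genes and 1 gene of the set. The sum of the heavy chains kept its direction, with a log2 ratio of -0.15 to -0.11 without 1 library. Depth limits HLA-F, HLA-G, NLRC5 and PSMB9.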

Other observations

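The class II transcripts were counted in libraries in which leukocyte genes were at or near 0. CD74 had 1051 to 1436 counts in each library, HLA-DQB1 972 to 1464, HLA-DOA 963 to 1386 and HLA-DRA 91 to 162. PTPRC had 0 to 3 counts, CD3E 0 to 2, CD14 0 or 1 and TYROBP 0 to 5. CORO1A, another gene of the leukocyte list, had 272 to 434 counts.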
